A study of Homo sapiens with 8 samples.

Results

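Transcription factors that define kidney tubule and epithelial identity were followed through 8 RNA-seq libraries of A-498 cells, a long-established line from a human kidney carcinoma. The rows were picked by gene name with earlier results of these data known, and comprised 8 of the 28395 genes in the deposited table: ELF3, EHF, GRHL2, KLF5, HNF4A, PAX8, PAX2 and LHX1. Of these, 6 passed the filter on low values (a normalized count of at least 10 in at least 2 libraries), and EHF and GRHL2 did not. Control line 1 and control line 2 were genotyped as wild type in the labels and carried non-targeting sgRNA-1 and non-targeting sgRNA-2, which direct no cut in the genome. KO-labelled line 1 and KO-labelled line 2 were labelled ANXA4 KO and carried a first and a second sgRNA against ANXA4, the gene of annexin A4, a calcium-dependent phospholipid-binding protein. The study asked how loss of annexin A4 changed the transcriptome. Each line had 2 replicate libraries of polyA RNA, from cultures of equal cell number grown for 24 hours in RPMI medium with fetal calf serum to below confluence. Each guide was present in 1 line, so guide and line cannot be told apart, and nothing stated that replicates came from separate derivations of a line. P-values therefore measure the spread between these libraries, which may be technical.

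Epithelial cells are kept in their state by families of DNA-binding proteins. ELF3 and EHF are epithelium-specific ETS factors, GRHL2 is a grainyhead factor that drives junction genes such as CDH1, and KLF5 is a zinc-finger factor of proliferating epithelia. PAX2, PAX8 and LHX1 act in the nephron progenitors and early tubule of the developing kidney, and PAX8 remains a marker of renal cell carcinoma, while HNF4A, a nuclear receptor, drives the differentiated program of the proximal tubule.

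Depth ranged from 15784890 to 22631588 reads per library, with 13290 to 13781 genes at 10 or more reads. Across genes, Pearson's r between replicates of a line was 0.978 to 0.987 on log2 values, above the highest correlation with another line, 0.973 to 0.978. Of 13 kidney carcinoma markers, 11 had at least 10 reads in every library. Some defining markers of other cell types were at 0 in all 8 libraries, namely CD3E (T cells), CDH5 (endothelium), APOA2 (hepatocytes), TYR (melanocytes), MYOD1 (muscle) and STMN2 (neurons). Each of the 5 marker lists also had 1 gene with at least 10 reads in every library, which was CD68 for leukocytes (1784 to 4409 normalized counts), AFP for hepatocytes (86.1 to 131), TEK for endothelium (21.7 to 67.6), PMEL for melanocytes (18.9 to 49.3) and DES for muscle (19.3 to 36.3). ANXA4 checks the labels. Its normalized counts were 2821, 3614, 3858 and 6773 in the control libraries, 236 and 234 in KO-labelled line 1, and 3433 and 4142 in KO-labelled line 2, which lay within the control range. Neither a frameshift nor the protein can be read from these counts, so directions between KO and control go by the labels.

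Promoter windows of the 3 factors that passed the test in at least 1 comparison with the control lines are shown first. They are the 250 bases before the RefSeq start of each gene on GRCh38.p14, 5′ to 3′, all on the plus strand. Capitals mark matches on either strand to the core promoter element TATAAA, the Sp1-type element GGGCGG, the ETS core GGAAG, the E-box CAGGTG, a form bound by SNAI and ZEB factors or the NF-kB consensus. ELF3 lies at chr1:202010337-202010586, KLF5 at chr13:73054726-73054975 and HNF4A at chr20:44355449-44355698.
ELF3: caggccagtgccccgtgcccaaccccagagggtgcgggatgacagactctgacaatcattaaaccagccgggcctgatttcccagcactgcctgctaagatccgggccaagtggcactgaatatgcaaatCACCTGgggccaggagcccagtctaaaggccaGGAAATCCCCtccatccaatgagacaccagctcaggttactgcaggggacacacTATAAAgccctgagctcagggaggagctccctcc
KLF5: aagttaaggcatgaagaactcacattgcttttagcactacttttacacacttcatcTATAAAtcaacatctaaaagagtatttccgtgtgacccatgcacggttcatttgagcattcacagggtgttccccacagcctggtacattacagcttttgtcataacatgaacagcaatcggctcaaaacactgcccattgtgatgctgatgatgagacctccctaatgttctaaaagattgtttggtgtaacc
HNF4A: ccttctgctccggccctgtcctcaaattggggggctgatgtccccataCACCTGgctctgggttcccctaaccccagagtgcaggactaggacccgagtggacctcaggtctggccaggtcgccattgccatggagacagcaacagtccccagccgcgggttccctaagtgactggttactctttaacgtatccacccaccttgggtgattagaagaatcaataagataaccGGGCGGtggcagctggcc

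The ELF3 window held CAGGTG read on the other strand 120 bases before the start, the NF-kB consensus 88 bases before it and TATAAA 34 bases before it. In the HNF4A window CAGGTG, also on the other strand, lay 202 bases before the start and GGGCGG 18 bases before it. KLF5 had TATAAA 194 bases before the start, and no match overlapped another in these windows. Over 35116 RefSeq promoters cut to the same 250 bases, TATAAA occurred in 10.7%, GGGCGG in 42.6%, GGAAG in 65.1%, CAGGTG in 17.5% and the NF-kB consensus in 9.96%. GC content was 58.4% in ELF3, 58.4% in HNF4A and 40.8% in KLF5, against a median of 58% over those promoters. A match is a description of the letters, and the data held no measurement of binding. Counts per gene do not tell which start the transcripts came from, so a window need not be the promoter in use.

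ELF3 (Entrez gene 1999, chr1:202010587-202017183, GRCh38.p14), the epithelium-specific ETS factor, was the only member that passed the test between all KO-labelled and all control libraries. Control line 1 had normalized counts of 325 and 262, and control line 2 had 508 and 441. They were 1683 and 1287 in KO-labelled line 1 and 1816 and 998 in KO-labelled line 2. All 4 KO-labelled libraries lay above all 4 control libraries, as they did for 5.11% of all genes tested. The lowest of the KO-labelled libraries was replicate 2 of KO-labelled line 2.

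The control libraries averaged 384 ± 111 and the KO-labelled libraries 1446 ± 374 (SD, n = 4 each), a 3.78-fold rise on the log2(value + 1) scale (log2 fold change 1.92, SE 0.29, limma adjusted p 0.0245). Across all 14040 genes tested, 0.235% were called in this comparison, 18 higher and 15 lower, and at an unadjusted p under 0.05 there were 1615. Of the other 5 members tested, 0 were called here. The ELF3 call was lost without replicate 1 of control line 1 (adjusted p 0.0753), replicate 2 of control line 1 (0.0623), replicate 2 of control line 2 (0.0508) or replicate 1 of KO-labelled line 2 (0.118). With line means, of which there were 2 on each side, the adjusted p was 0.387.

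**Figure D1:**
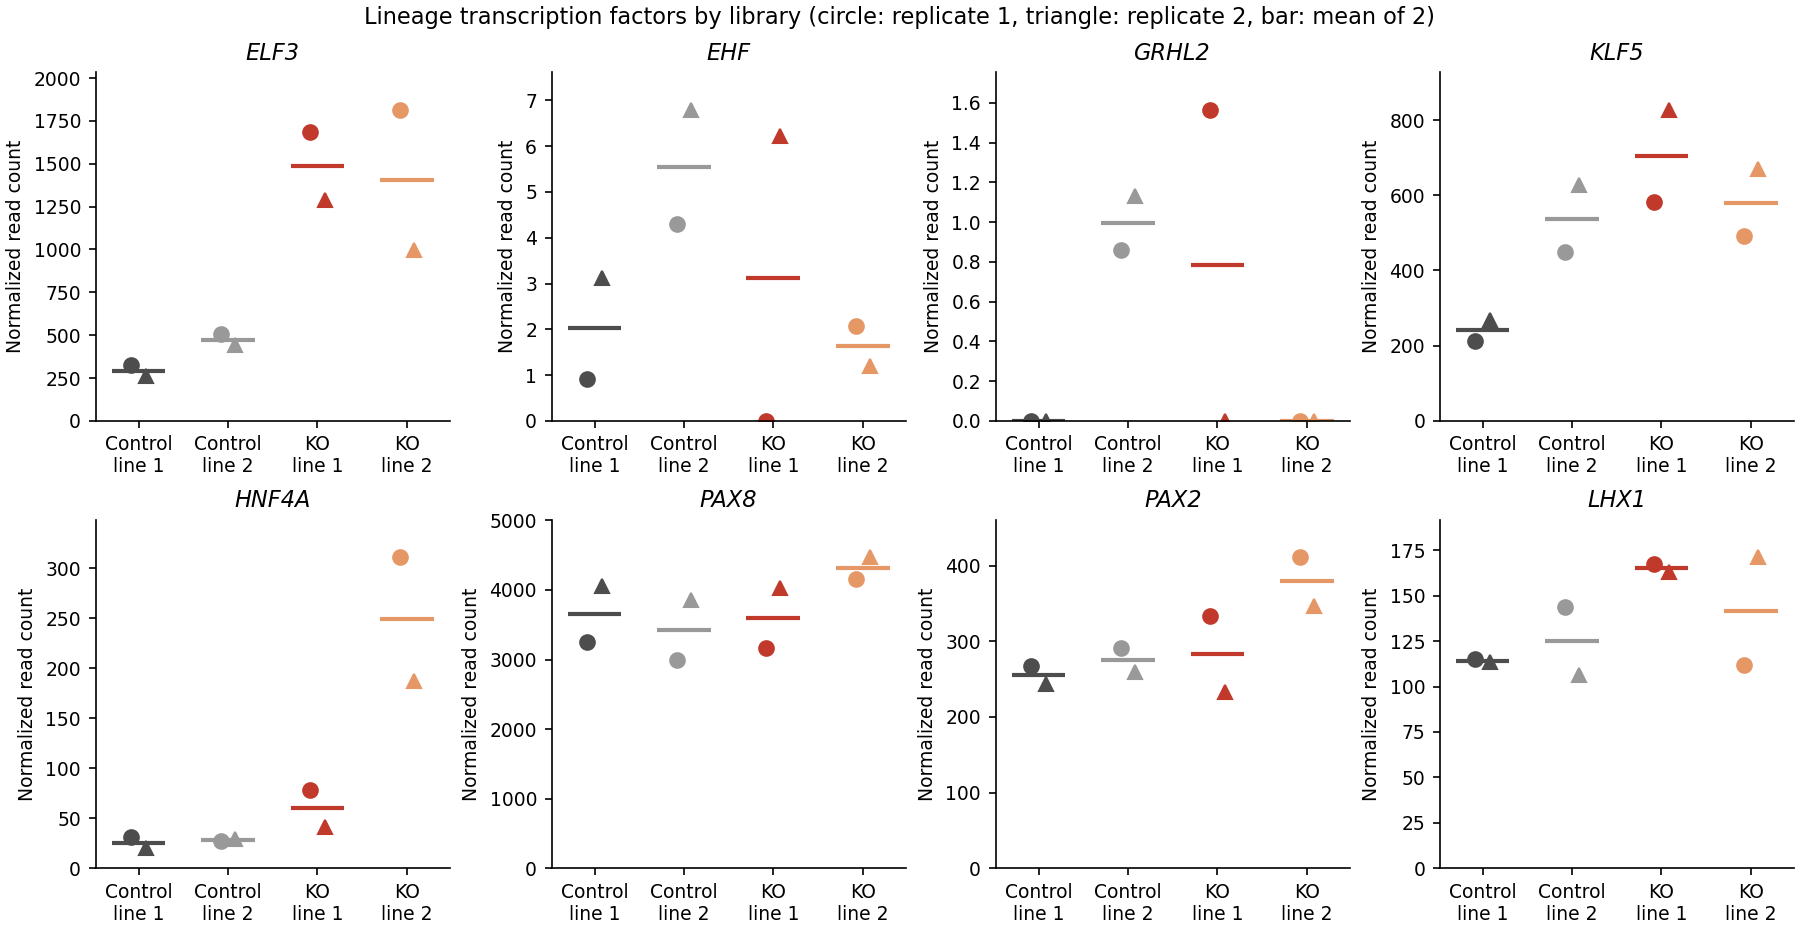
Normalized read count (y axis, linear, from 0) of each of the 8 transcription factors in the 4 lines (x axis); circles are replicate 1, triangles replicate 2 and bars the mean of 2 libraries. ELF3 lies between 262 and 508 in the control libraries and between 998 and 1816 in the KO-labelled libraries, HNF4A reaches 311 in KO-labelled line 2, and GRHL2 does not pass 1.57.

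Taken line by line against both control lines, ELF3 was higher by 1.98 (SE 0.24, limma adjusted p 0.00247) in KO-labelled line 1 and by 1.85 (SE 0.24, adjusted p 0.00276) in KO-labelled line 2. Both comparisons used the same 4 control libraries. Of all genes tested, 7.01% were called for KO-labelled line 1 and 11.2% for KO-labelled line 2. In the fits that each left out 1 of the 8 libraries, both calls were kept, with adjusted p-values up to 0.0476 and 0.0141. The KO-labelled lines themselves differed by -0.13 for ELF3 (line 2 minus line 1, 95% interval -0.75 to 0.49, adjusted p 0.808).

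ELF3 also stood apart between the control lines, with both libraries of control line 2 above both of control line 1, an order not counted over all genes. That difference was 0.69 (SE 0.27, limma adjusted p 0.254) and was called once the replicate number entered as a block (adjusted p 0.0108). In the comparison of control line 2 with control line 1, 2.13% of all genes were called, and 0 of the 6 members tested were called without the block. The antisense gene ELF3-AS1 spans 201995696 to 202010463 on the minus strand. Its 5′ end thus lies before the RefSeq start of ELF3 and within the promoter window shown above. It overlaps on the other strand only the longer GENCODE model of ELF3, which starts at 202007945. Strand use in counting was not given in the sources used here, so where genes overlap on opposite strands their reads cannot be told apart.

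KLF5 (Entrez gene 688, chr13:73054976-73077538), the zinc-finger factor of proliferating epithelia, had its lowest values in control line 1. The normalized counts there were 213 and 268. Control line 2 had 448 and 627, KO-labelled line 1 had 581 and 828, and KO-labelled line 2 had 491 and 669. The values of control line 2 overlapped those of both KO-labelled lines.

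KLF5 rose by 0.96 (SE 0.22, limma adjusted p 0.0359) in KO-labelled line 1 against both control lines. That call was lost without replicate 1 (0.0977) or replicate 2 (0.0723) of control line 1, replicate 1 of control line 2 (0.0568), or replicate 1 (0.0925) or replicate 2 (0.289) of KO-labelled line 1. In KO-labelled line 2 the difference was 0.69 (SE 0.22, adjusted p 0.0786), called with the replicate block (0.000611). Between the control lines it was 1.14 (SE 0.25, adjusted p 0.0562), numerically above both of these, and it was called with the replicate block (0.00015). It was also called without replicate 1 (0.0442) or replicate 2 (0.0448) of KO-labelled line 2. Over all KO-labelled against all control libraries KLF5 was at 642 ± 143 and 389 ± 187 (SD, n = 4 each), and the log2 difference was 0.82 (SE 0.34, adjusted p 0.386).

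EHF (Entrez gene 26298, chr11:34621093-34663288), the other epithelium-specific ETS factor, was at the edge of detection. It had 1 and 3 reads in control line 1, 5 and 6 in control line 2, 0 and 6 in KO-labelled line 1, and 2 and 1 in KO-labelled line 2. GRHL2 (Entrez gene 79977, chromosome 8), the grainyhead factor, had 0 and 0 reads in control line 1, 1 and 1 in control line 2, 2 and 0 in KO-labelled line 1, and 0 and 0 in KO-labelled line 2. Neither gene was tested, and no fold is given. A library with 0 reads allows up to 3 reads, given here as normalized counts and for counting error only. For GRHL2 that was 2.76 and 3.12 (control line 1), 3.11 (KO-labelled line 1, replicate 2) or 3.10 and 3.62 (KO-labelled line 2). For EHF it was 2.35 (KO-labelled line 1, replicate 1).

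HNF4A (Entrez gene 3172, chr20:44355699-44434596), the nuclear receptor of the proximal tubule, spanned the widest range of the tested members on the log2 scale. Control line 1 had normalized counts of 31.3 and 19.8, and control line 2 had 26.7 and 29.5. KO-labelled line 1 had 78.3 and 41.5, from 100 and 40 reads, and KO-labelled line 2 had 311 and 187, from 301 and 155 reads. All 4 KO-labelled libraries lay above all 4 control libraries, as they did for 5.11% of all genes tested. Both libraries of KO-labelled line 2 lay above both of line 1, an order not counted over all genes.

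Against both control lines HNF4A was 8.84-fold higher in KO-labelled line 2 (log2 fold change 3.14, SE 0.34, limma adjusted p 0.0016), a call kept in each of the 8 fits without 1 library (adjusted p up to 0.0142). In KO-labelled line 1 the log2 difference was 1.08 (SE 0.34, adjusted p 0.0904), which the replicate block called (0.00689). The 2 KO-labelled lines differed directly, by 2.06 (line 2 minus line 1, SE 0.39, adjusted p 0.0204), a comparison in which 6.94% of all genes were called. This call was lost without replicate 2 of KO-labelled line 1 (1.61, adjusted p 0.161) or replicate 1 of KO-labelled line 2 (1.70, adjusted p 0.0611).

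Over all KO-labelled against all control libraries HNF4A stood at 155 ± 121 and 26.8 ± 5.05 (SD, n = 4 each), the log2 difference was 2.11 (SE 0.57, limma adjusted p 0.178), and the KO-labelled lines lay far apart. DESeq2 called it (adjusted p 8.52e-05), while edgeR and limma with no line term did not. None of these 3 fits took account of the line. The line with the higher HNF4A was the line in which ANXA4 lay within the control range. HNF4A-AS1 and AL117382.2 overlap HNF4A on the other strand, and HNF4A-AS1 was listed at 0 in all 8 libraries.

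PAX8 (Entrez gene 7849, chr2:113215997-113278921), the paired-box factor used as a renal carcinoma marker, was the most abundant member. Control line 1 had normalized counts of 3247 and 4054, control line 2 had 2987 and 3858, KO-labelled line 1 had 3159.6 and 4034, and KO-labelled line 2 had 4161 and 4476. In KO-labelled line 2 both libraries lay above all 6 others, while the other lines overlapped. How many of all genes had this order was not counted. The difference was 0.02 (95% interval -0.34 to 0.39, limma adjusted p 0.944) for KO-labelled line 1 and 0.30 (-0.07 to 0.66, adjusted p 0.279) for KO-labelled line 2 against both control lines. The latter was called with the replicate block (0.0336). PAX8-AS1, which overlaps PAX8 on the other strand, had 49.9 to 125 in the control libraries and 62.6 to 127 in the KO-labelled libraries, and was called in 0 of these comparisons.

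PAX2 (Entrez gene 5076, chr10:100735396-100829944), the paired-box factor of the early nephron, had normalized counts of 268 and 243 (control line 1), 292 and 259 (control line 2), 333 and 232 (KO-labelled line 1) and 412 and 346 (KO-labelled line 2). Again KO-labelled line 2 lay above all other libraries, an order not counted over all genes. Against both control lines it differed there by 0.51 (95% interval 0.11 to 0.91, limma adjusted p 0.104), a difference the replicate block called (0.0111), and by 0.07 (-0.33 to 0.48, adjusted p 0.846) in KO-labelled line 1. The KO-labelled lines differed by 0.44 (SE 0.21, adjusted p 0.234; 0.0487 with the replicate block).

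LHX1 (Entrez gene 3975, chr17:36936785-36944612), the LIM homeodomain factor of the early kidney, had normalized counts of 115 and 113 (control line 1), 144 and 106 (control line 2), 168 and 163 (KO-labelled line 1) and 112 and 171 (KO-labelled line 2). Replicate 1 of KO-labelled line 2 fell within the control range, apart from the other 3 KO-labelled libraries. The difference from both control lines was 0.47 (95% interval -0.02 to 0.96, limma adjusted p 0.227) for KO-labelled line 1 and 0.22 (-0.27 to 0.71, adjusted p 0.58) for KO-labelled line 2. AC243773.1 overlaps LHX1 on the other strand. A p that missed the threshold does not show that PAX8, PAX2 or LHX1 were equal between lines, and the intervals give the sizes the data allow.

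**Figure D2:**
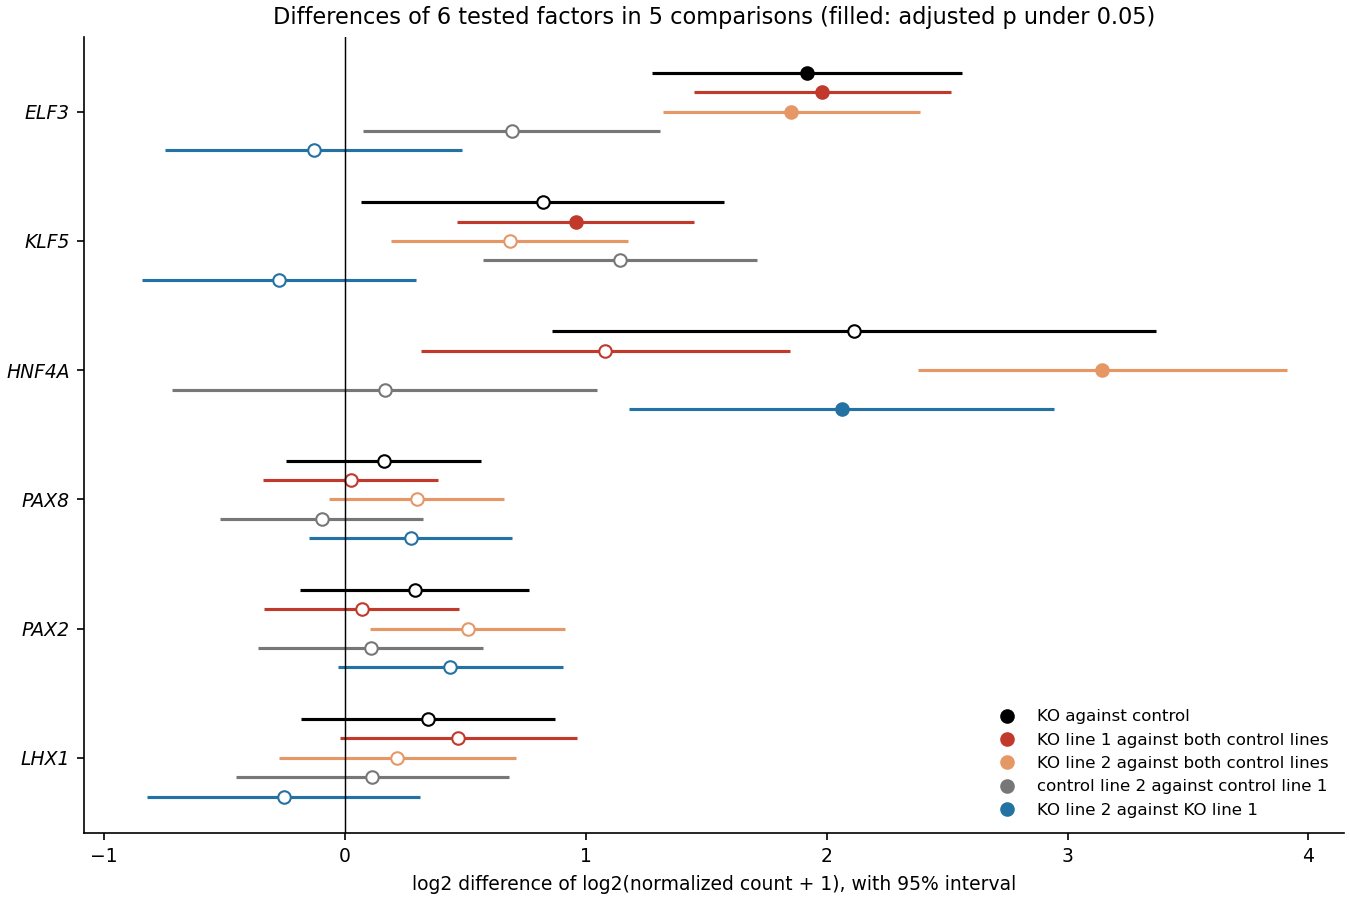
Log2 difference (x axis, of log2(normalized count + 1)) of the 6 tested factors (y axis) in 5 comparisons of lines, with points as limma estimates, bars as 95% intervals and filled points for an adjusted p under 0.05. ELF3 is filled in the 3 comparisons of KO-labelled with control lines, HNF4A for KO-labelled line 2 against the controls (3.14) and against line 1 (2.06), and KLF5 for KO-labelled line 1 (0.96).

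Per kilobase of exon, so that genes can be set side by side, the levels over the 8 libraries ran from PAX8 (918 ± 133 normalized counts per kb) through ELF3 (288 ± 196), KLF5 (138 ± 54.8), PAX2 (70.9 ± 14.6), LHX1 (39.9 ± 8.14) and HNF4A (12.6 ± 14.5) to EHF (0.92 ± 0.75) and GRHL2 (0.085 ± 0.12; SD, n = 8). The median tested gene was at 113 per kb, and 90.1% of tested genes with a length lay below PAX8 and 15.2% below HNF4A. Neighbours in this order overlapped in some lines. In control line 1 KLF5 (56.9 and 71.6 per kb) overlapped PAX2 (57.8 and 63.6), and in control line 2 ELF3 (139 and 159.7) overlapped KLF5 (120 and 167). HNF4A was the lowest tested member in control line 1, control line 2 and KO-labelled line 1. In KO-labelled line 2, at 26.0 and 43.2 per kb, it overlapped LHX1 (32.6 and 50.05).

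**Figure D3:**
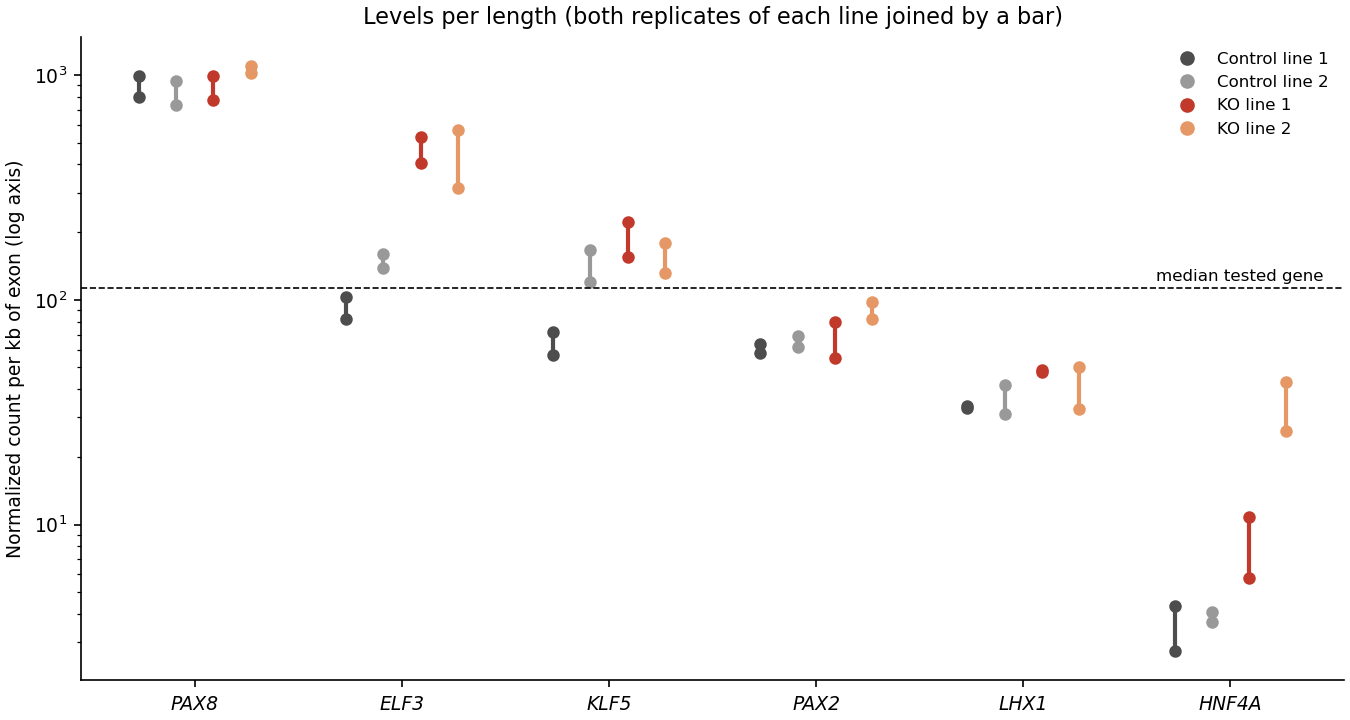
Normalized count per kb of exon (y axis, log scale) of the 6 tested factors (x axis), with both replicates of a line as points joined by a bar and the median tested gene, 113 per kb, as a dashed line. PAX8 is above the median in every library, PAX2, LHX1 and HNF4A are below it in every library, and ELF3 crosses it between control line 1 and the other lines.

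Some members differed between replicate numbers as well as between lines, a comparison added after the values were seen. In replicate 2 against replicate 1, with a mean per line, 17.6% of all genes were called. ELF3 was lower by 0.44 on the log2 scale in replicate 2 (log2 fold change -0.44, SE 0.11, limma adjusted p 0.0168), KLF5 was higher by 0.44 (SE 0.09, adjusted p 0.00699) and PAX8 was higher by 0.29 (SE 0.08, adjusted p 0.0256), each in 4 of 4 lines. HNF4A (-0.53, adjusted p 0.0804), PAX2 (-0.27, adjusted p 0.0947) and LHX1 (0.03, adjusted p 0.909) were not called.

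Within replicate 1, the KO-labelled lines exceeded the control lines by 2.10 for ELF3, 2.40 for HNF4A and 0.79 for KLF5. Within replicate 2 the differences were 1.73, 1.83 and 0.86, on the same log2 scale and with 2 libraries on each side. Mitochondrial transcripts took 4.67% and 6.35% of the reads in replicates 1 and 2 of control line 1, 6.39% and 9.05% in control line 2, 6.43% and 6.23% in KO-labelled line 1, and 6.40% and 13.8% in KO-labelled line 2. Their part in these differences was not tested. The ELF3 call between replicates was lost without replicate 1 (0.0688) or replicate 2 (0.0659) of KO-labelled line 2. For PAX8 it was lost without any library of control line 1, control line 2 or KO-labelled line 1 (adjusted p up to 0.136).

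The gene lists from here on were written with earlier results of these data known. Junction and surface genes of epithelia were examined as a list of 45 genes, of which 30 were tested. In KO-labelled line 1, 13 were higher and 0 lower than in both control lines, where 7.01% of all genes were called. In KO-labelled line 2 also 13 were higher and 0 lower, where 11.2% of all genes were called, with the same control libraries in both. The median log2 difference over the 30 was 0.82 and 0.65, where the median of all genes tested was 0.00 and 0.01. The control lines differed on this list too, with 5 higher and 1 lower in control line 2 (median 0.40), where 2.13% of all genes were called. In bulk RNA, fewer cells of a type and less RNA per cell cannot be told apart.

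MAL2, a membrane protein of apical transport, had normalized counts of 81.8 and 84.2 (control line 1) and 333 and 432 (control line 2), against 1152 and 1161 in KO-labelled line 1 and 975 and 888 in KO-labelled line 2. Its log2 difference from both control lines was 2.70 (SE 0.14, limma adjusted p 5.88e-05) and 2.38 (adjusted p 8.71e-05), and between the control lines it was 2.18 (adjusted p 0.000389). SPINT2, an inhibitor of membrane serine proteases, rose by 1.90 in KO-labelled line 2 (adjusted p 0.00456), from 20.4 to 39.5 over the control libraries to 134 and 103. MAL2 in all 3 comparisons and SPINT2 were called in every fit without 1 library.

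LCN2, a secreted iron-carrier protein, had 2.76 to 6.24 in the control libraries and 20.4 and 104 in KO-labelled line 1 (log2 fold change 2.98, SE 0.68, limma adjusted p 0.0371), and 5.17 and 15.7 in KO-labelled line 2. Its call was lost in 5 of the 8 fits without 1 library, and without replicate 2 of KO-labelled line 1 the difference was 1.84. Other called members of the list in KO-labelled line 1 were the claudins CLDN1, CLDN3 and CLDN4, the polarity proteins PATJ, CRB3 and LLGL2, and KRT7, CGNL1, LSR, GPRC5A and SPINT2. KO-labelled line 2 had calls for CLDN1, CLDN3, PATJ, LLGL2, KRT7, KRT8, KRT18, CGNL1, LSR, GPRC5A and CDH16. For GPRC5A, control line 2 (2157 and 2309) overlapped KO-labelled line 2 (2037 and 2279). For LSR, control line 2 (764 and 1047) overlapped KO-labelled line 2 (830 and 1170) and KO-labelled line 1 (1015 and 1072). In control line 1 GPRC5A had 922 and 1073, and LSR had 234 and 332. Between the control lines, PRSS8, a membrane serine protease, was higher in line 2 (6.44 and 9.36 against 45.6 and 41.9, log2 fold change 2.35, adjusted p 0.0163) and KRT19, a keratin of simple epithelia, was lower (-1.35, adjusted p 0.0102). Between the KO-labelled lines, CDH16 was higher in line 2, and the desmosome gene DSP (-0.87, adjusted p 0.0482) and the junction gene F11R (-0.64, adjusted p 0.0204) were lower. Without 1 library the calls of PRSS8 and KRT19 were lost in 4 and 3 of 8 fits, and those of CDH16, DSP and F11R between the KO-labelled lines in 5, 5 and 3. The DSP call was also lost with a pseudocount of 0.1 (0.0505), without the filter on low values (0.0615) and in edgeR (0.0503).

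These counts moved with single libraries, and so did the calls over all genes, whose ranges are given at the end. For KO-labelled line 1 the 13 became 6 and 5 without replicates 1 and 2 of control line 1, 7 without replicate 2 of control line 2, and 4 and 2 without replicates 1 and 2 of the line itself. For KO-labelled line 2 they became 6 and 8 without replicates 1 and 2 of control line 1, and 5 and 7 without replicates 1 and 2 of the line itself. None of the 8 fits without 1 library kept the 13 of KO-labelled line 2, and none called a list gene lower in either line. With the replicate block the counts were 22 higher and 0 lower for KO-labelled line 1, and 15 and 3 for KO-labelled line 2. They were 12 and 2 between the control lines, and 3 and 10 (against 1 and 2) for KO-labelled line 2 against line 1. Calls over all genes tested also rose with the block. They went from 984 to 3432 for KO-labelled line 1 and from 1573 to 3851 for KO-labelled line 2. Between the control lines they went from 299 to 1752, and between the KO-labelled lines from 975 to 3442. Over all KO-labelled against all control libraries limma called 0 of the 30 (median 0.78), edgeR 3 and DESeq2 13, each of them higher.

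Several classical epithelial genes were near the floor in all lines, as GRHL2 was. CDH1 (E-cadherin) had 0.92 to 10.9 normalized counts, EPCAM 3.13 to 9.46 and the splicing factor ESRP1 0 to 0.92 over the 8 libraries. None of them passed the filter.

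**Figure D4:**
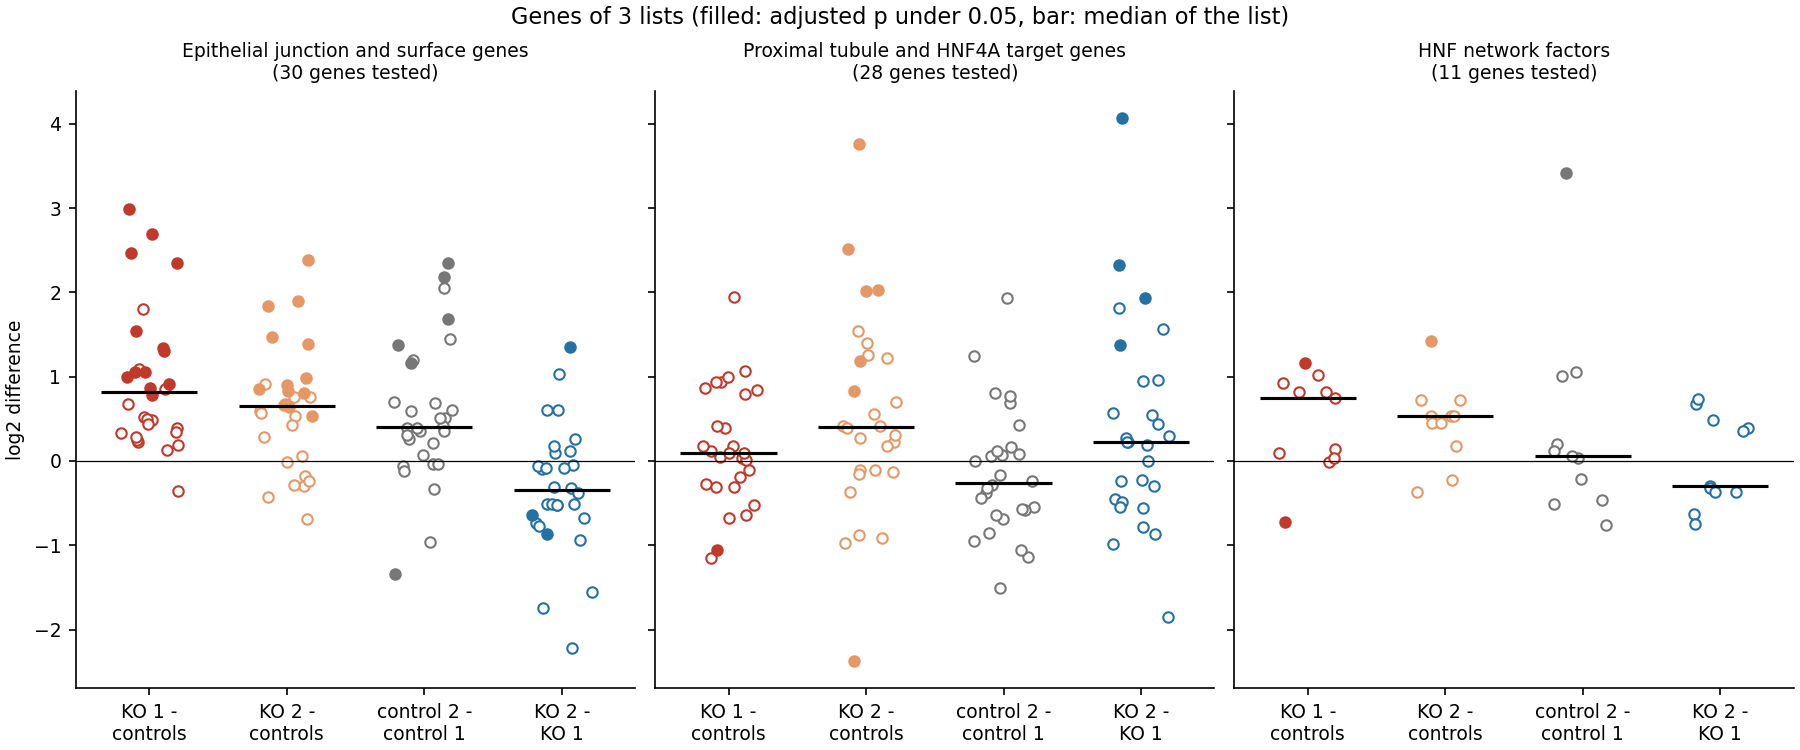
Log2 difference (y axis) of each tested gene of 3 lists in 4 comparisons of lines (x axis); filled points have a limma adjusted p under 0.05 and bars are list medians. Epithelial junction genes sit mostly above 0 in both KO-labelled lines (medians 0.82 and 0.65), and among proximal tubule genes the called rises are in KO-labelled line 2.

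Proximal tubule genes and known HNF4A targets formed a list of 53, of which 28 were tested. In KO-labelled line 2, 6 were higher and 1 lower than in both control lines, and in KO-labelled line 1, 0 were higher and 1 lower (medians 0.40 and 0.09), where 11.2% and 7.01% of all genes were called. Between the KO-labelled lines, where 6.94% of all genes were called, 4 were higher in line 2 and 0 lower, and between the control lines 0 were called. The 6 of KO-labelled line 2 became 3 without either replicate of that line, and the 4 became 2 without replicate 1 of KO-labelled line 1 or replicate 2 of KO-labelled line 2. Calls over all genes moved in those fits too. With the replicate block there were 11 higher and 2 lower in KO-labelled line 2, and 6 and 2 in KO-labelled line 1. Between the KO-labelled lines there were 6 and 3, and between the control lines 3 and 2. Blocked totals over all 14040 genes tested were 3851, 3432, 3442 and 1752, in the same order.

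ENPEP, a brush-border aminopeptidase, had 51.6 to 93.6 in the control libraries, 79.9 and 86.1 in KO-labelled line 1, and 364 and 485 in KO-labelled line 2. It was higher in KO-labelled line 2 by 2.51 against both control lines (SE 0.19, limma adjusted p 0.000306) and by 2.33 against KO-labelled line 1 (adjusted p 0.00167), and both calls were kept in all 8 fits without 1 library. FBP1, the gluconeogenic fructose-1,6-bisphosphatase, was at 0 to 5.52 in the control libraries, 3.13 and 1.04 in KO-labelled line 1, and 50.7 and 44.7 in KO-labelled line 2 (log2 fold change 3.76 against both control lines, SE 0.73, adjusted p 0.0138). The low libraries of FBP1 are near 0, and with a pseudocount of 0.1 in place of 1 its call was lost (adjusted p 0.0589).

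HPD, GGT1, UGT2B7 and CLTRN, which serve tyrosine breakdown, glutathione breakdown, glucuronidation and amino acid transport, were the other 4 that rose in KO-labelled line 2. MME, the brush-border endopeptidase neprilysin, fell there by 2.37 on the log2 scale (log2 fold change -2.37, limma adjusted p 0.0131; 0.0623 without replicate 1 of that line). ANPEP, an abundant brush-border aminopeptidase, was lower in KO-labelled line 1 (-1.06, adjusted p 0.0387), with 4853 to 6683 in the control libraries against 2135 and 3415, a call lost in 6 of the 8 fits without 1 library. Some mature proximal tubule genes were near the floor, although 28 of the 53 list genes passed the filter. LRP2 (megalin) had 0 to 1.13 and SLC34A1 (the phosphate carrier) 0 to 8.45 normalized counts over the 8 libraries.

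**Figure D5:**
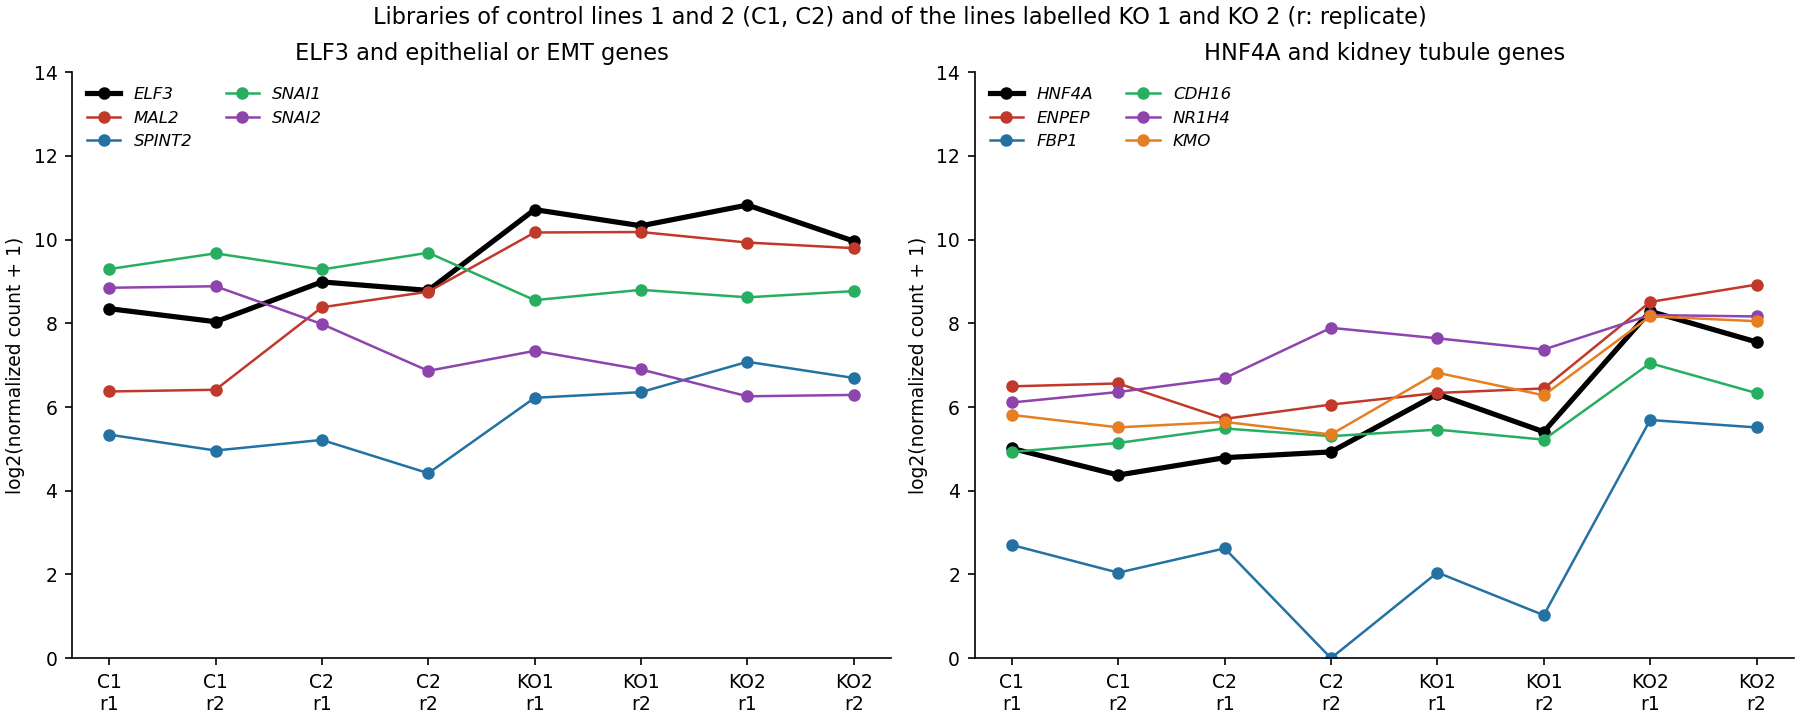
Log2(normalized count + 1) (y axis) in the 8 libraries (x axis) of ELF3 with 4 epithelial or EMT genes (left) and of HNF4A with 5 kidney tubule genes or its near neighbour KMO (right); lines join the values of a gene and carry no order. MAL2 and ELF3 are highest in the KO-labelled libraries, SNAI1 is lowest there, SNAI2 is lowest in KO-labelled line 2, and ENPEP and FBP1 are high in KO-labelled line 2 only among the 4 lines.

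Among nuclear receptors and other liver-enriched factors listed as partners of HNF4A, 11 of 16 were tested. NR1H4, the bile acid receptor, rose in KO-labelled line 2 by 1.42 (SE 0.30, limma adjusted p 0.0181), from 68.0 to 237 over the control libraries to 293 and 286. In KO-labelled line 1 NR5A2, an orphan nuclear receptor, rose by 1.17 (adjusted p 0.0258) and FOXA2, a forkhead factor of endoderm, fell by 0.72 on the log2 scale (log2 fold change -0.72, adjusted p 0.0259). ONECUT1, with 0 and 1.04 (control line 1) and 12.9 and 15.9 (control line 2), was the list's 1 call between the control lines and was named after its values were seen. Without 1 library the calls of NR1H4, NR5A2 and FOXA2 were lost in 3, 6 and 5 of 8 fits. With the replicate block the list had 5 higher and 1 lower in KO-labelled line 1, and 4 and 1 in KO-labelled line 2. Between the control lines it had 3 and 0, and between the KO-labelled lines 1 and 1. The blocked totals over all genes are those given with the junction genes.

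Of 35 other kidney developmental and segment factors, 20 were tested. POU3F3, a POU factor of the developing distal nephron, rose by 0.82 (limma adjusted p 0.00925) in KO-labelled line 1 and by 0.99 (adjusted p 0.00314) in KO-labelled line 2, from 181 to 253 over the control libraries to between 368 and 433. HOXD11, a homeobox gene of the metanephros, fell by 1.45 on the log2 scale in KO-labelled line 2 (log2 fold change -1.45, adjusted p 0.00302), from 239 to 318 over the control libraries to 87.9 and 115. It was also lower there than in KO-labelled line 1 (-1.18, adjusted p 0.0195). MECOM was lower in control line 2 than in control line 1 (-1.21, adjusted p 0.0262). The POU3F3 and HOXD11 calls in KO-labelled line 2 against the control lines were kept in all 8 fits without 1 library, while the HOXD11 call between the KO-labelled lines was lost in 3 and the MECOM call in 4. The POU3F3 call in KO-labelled line 1 was lost without replicate 1 or replicate 2 of that line (adjusted p up to 0.12). Under the block by replicate this list had 2 higher and 2 lower in KO-labelled line 1, and 5 and 3 in KO-labelled line 2. Between the control lines it had 0 and 3, and between the KO-labelled lines 1 and 2. Blocked totals over all 14040 genes tested were 3432, 3851, 1752 and 3442, in the same order.

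Other epithelial transcription factors numbered 25, with 18 tested. BARX2, a homeobox factor, rose by 1.64 in KO-labelled line 1 (limma adjusted p 0.00558) and by 1.66 in KO-labelled line 2 (adjusted p 0.00374), with 66.2 to 207 in the control libraries and 295 to 344 in the KO-labelled libraries. KLF4, which belongs to the same zinc-finger family as KLF5, rose in KO-labelled line 1 (0.95, adjusted p 0.0275) and was lower in KO-labelled line 2 than in line 1 (-1.23, adjusted p 0.0204). TFAP2C fell in KO-labelled line 1 (-0.96, adjusted p 0.0312) and SOX9, a factor of tubule progenitors, fell in KO-labelled line 2 (-1.14, adjusted p 0.0109; 0.0509 without replicate 2 of that line). The KLF4 and TFAP2C calls in KO-labelled line 1 were each lost in 5 of 8 fits without 1 library, and the KLF4 call between the KO-labelled lines in 3. The BARX2 call in KO-labelled line 1 was lost without either replicate of that line (adjusted p up to 0.0821), and the one in KO-labelled line 2 was kept in all 8 fits. Blocking by replicate gave 4 higher and 3 lower in KO-labelled line 1, and 3 and 4 in KO-labelled line 2. It gave 1 and 1 between the control lines, and 0 and 4 between the KO-labelled lines. These counts stand beside the same blocked totals over all genes.

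Factors that repress the epithelial state in epithelial-mesenchymal transition (EMT) numbered 10, with 6 tested. SNAI1 had 624 to 824 in the control libraries and 375 to 445 in the KO-labelled libraries, with differences of -0.81 (limma adjusted p 0.0273) in KO-labelled line 1 and -0.79 (adjusted p 0.0201) in KO-labelled line 2. SNAI2 fell in KO-labelled line 2 by 1.87 on the log2 scale (log2 fold change -1.87, SE 0.29, adjusted p 0.00533), to 75.5 and 77.3. Its control lines lay apart, with 461 and 472 (line 1) and 252 and 116 (line 2). FOXC1, which promotes EMT, rose in KO-labelled line 2 (0.62, adjusted p 0.0313). ZEB1, at 305 to 395 in the control and 354 to 466 in the KO-labelled libraries, was not called. Without 1 library the SNAI1 calls were lost in 4 and 3 of 8 fits and the FOXC1 call in 7, and the SNAI2 call was kept in all 8. With the replicate block the list had 1 higher and 2 lower in KO-labelled line 1, and 0 and 2 between the control lines. Between the KO-labelled lines it had 0 and 1, and the counts for KO-labelled line 2 were as without the block. Blocked calls over all genes were 3432 (KO-labelled line 1), 3851 (KO-labelled line 2), 1752 (control lines) and 3442 (KO-labelled lines).

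Distal nephron and collecting duct genes were mostly not expressed, with 6 of 26 tested. SCNN1A, a subunit of the epithelial sodium channel, rose in KO-labelled line 1 (1.34, limma adjusted p 0.0239), from 21.8 to 35.3 over the control libraries to 70.5 and 68.5. AQP3, a water channel (2.10, adjusted p 0.0165), and CDH16, the kidney cadherin (1.48, adjusted p 0.00989), rose in KO-labelled line 2, and WNK4, a kinase that controls salt transport, fell there (-0.98, adjusted p 0.0418). CDH16 had 29.4 to 43.9 in the control libraries, 43.1 and 36.3 in KO-labelled line 1, and 131 and 79.7 in KO-labelled line 2. Without replicate 1 of KO-labelled line 2 its adjusted p was 0.0652. The calls of SCNN1A, AQP3 and WNK4 were lost in 5, 2 and 6 of 8 fits without 1 library. The replicate block moved this list only between the KO-labelled lines, from 1 higher and 0 lower to 1 and 2. Calls over all 14040 genes tested went from 975 to 3442 in that comparison. Over all KO-labelled against all control libraries, limma called 0 genes in each of these lists.

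Among 11237 tested genes with a mean of at least 50, SKAP2 (r = 0.990), FAH (0.986) and NBEA (0.986) followed ELF3 most closely over the 8 libraries (Pearson's r of log2 values, a description with the 2 replicates of a line not independent). FAH is the last enzyme of tyrosine breakdown. For HNF4A they were MAT2B (0.987), KMO (0.981) and DPCD (0.974). KMO, kynurenine 3-monooxygenase, had 39.7 to 55.2 in the control libraries, 112 and 76.8 in KO-labelled line 1, and 286 and 264 in KO-labelled line 2. The genes most like KLF5 were AREG (0.986), TNFRSF10B (0.981) and FAM177A1 (0.978). AREG, the epidermal growth factor receptor ligand amphiregulin, had 162 and 359 (control line 1) and 799 and 1627 (control line 2), and as for KLF5 the values of control line 2 overlapped those of the KO-labelled lines.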

How the data were processed

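The labels gave polyA RNA libraries, 2 from each of 4 A-498 lines. The authors deposited 1 normalized signal per gene and library on a linear scale. The submitters' processing notes name fastp 0.23.2, HISAT2 2.2.1, featureCounts 2.0.1, DESeq2 2.11.40.8 and the builds hg38 and GRCh38, without roles; strand use was not given in the sources used here. Divided by what 1 read is worth, 100% of the 140322 nonzero values came out whole (relative tolerance 1e-06), and the factors differed from DESeq2 size factors by at most 9.77e-12. The values are thus size-factor-normalized read counts, and multiplying back gave the reads. Symbols and coordinates came from RefSeq on GRCh38.p14 (27745 of 28395 identifiers named; the others held 0.0332% of reads), promoters from the RefSeq table (6 of 8 members matched), and exon lengths and overlaps from GENCODE.

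The 14040 genes reaching a value of 10 in 2 or more libraries were tested with limma 3.58.1 (R 4.3.3) on log2(value + 1), with a mean-variance trend and Benjamini-Hochberg adjustment over all of them; an adjusted p under 0.05 is a call. Fold changes on this scale understate those of low genes. KO against control used the line as a random block (correlation 0.33), and other comparisons 1 model with a mean per line. Count tests on the recovered reads were alternatives: in KO against control edgeR 4.0.16 called 186 genes and DESeq2 1.42.0 called 850. The other alternatives were the pseudocount (0.1, 10), the filter on low values, TMM scaling, no line term, line means and leaving out each library. As reads had no molecular identifiers, limits are for counting error only.

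Replicate numbers came from the titles. The difference of replicate 2 from replicate 1, correlated across genes for the 6 pairs of lines, gave r of 0.285 to 0.501. All lay above the limit of 0.1 set for pairing. The main fits between lines had no term for the replicate number, so their adjusted p-values and calls leave this pairing out. A fit blocked by replicate number is given beside them where it changes a call or a list count. Members and lists were chosen with earlier results of these data known. Named from each list were the 2 largest rises and 2 largest falls per comparison among called genes with a mean of at least 10, and for each member called in at least 1 comparison the 3 genes (mean of at least 50) with the highest Pearson's r. Other list genes in the text carry that rule's exception of being named after their values were seen. Some genes of the lists are not reported here.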

Additional observations from a re-analysis of the deposited data

Results flagged for a closer look

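HNF4A differed between the KO-labelled lines. Its log2 difference from both control lines was larger in KO-labelled line 2 than in line 1 by 2.06 (SE 0.39, limma adjusted p 0.0204), with 311 and 187 normalized counts in line 2 and 78.3 and 41.5 in line 1. In the 8 fits without 1 library this value lay between 1.61 and 2.51.

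LHX1 in the 4 KO-labelled libraries had a value far from the rest. Replicate 1 of KO-labelled line 2 was at 112 and the other 3 at 163 to 171, so the gap took 0.857 of the whole range. Chance flags about 1 in 20 groups of 4 independent values. These 4 libraries were 2 replicates of each of 2 lines, so that rate need not hold here. Each tested member was checked in this way in the control and in the KO-labelled libraries.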

How the results depend on the processing

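For the 6 tested members, changing the pseudocount, the filter on low values, the scaling (TMM) or the line term kept every direction and call, DESeq2 changed 4 calls, edgeR 1 and the replicate block 7, all of them gains, and line means lost the ELF3 call. The block changed no other call of a member. Counts of genes moved more. Without a filter on low values 71 genes were called for KO against control and 183 between the control lines. For KO against control edgeR called 186 genes, DESeq2 850 with 2 members, a fit with no line term 190, and line means 0 genes and 0 members. Between the control lines DESeq2 called 655 genes and 1 member. With the replicate block as pairing, 3432 genes were called for KO-labelled line 1, 3851 with 5 members for KO-labelled line 2, 1752 with 2 members between the control lines and 3442 with 2 members between the KO-labelled lines. Where a cause is not plain from fewer libraries or the block itself, the cause was not tested.

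Leaving out 1 library at a time gave 7 to 39 genes and 0 to 1 members for KO against control, 148 to 1324 genes and 1 to 2 members for KO-labelled line 1, 814 to 1360 genes for KO-labelled line 2, 43 to 410 genes and 0 to 1 members between the control lines, 87 to 998 genes and 0 to 1 members between the KO-labelled lines, and 705 to 2306 genes between replicates. Log2 differences that changed sign in these fits ranged as follows. For KO-labelled line 1, PAX8 ranged from -0.15 to 0.20 and PAX2 from -0.19 to 0.33, and for KO-labelled line 2 LHX1 ranged from -0.089 to 0.52. Between the control lines HNF4A ranged from -0.15 to 0.48, PAX8 from -0.28 to 0.088 and LHX1 from -0.10 to 0.33. Between the KO-labelled lines ELF3 ranged from -0.56 to 0.30 and LHX1 from -0.56 to 0.053, and between replicates LHX1 ranged from -0.16 to 0.18. None of these was a call. Depth limited EHF and GRHL2, at 0 to 6 reads, to a statement of near absence of reads.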
